A study of Caenorhabditis elegans with 16 samples.

Results

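Small RNAs of Caenorhabditis elegans were compared between animals with and without a working hrde-1 gene, in both backgrounds that keep the SET-32 protein. Of the 16 libraries of the series, 4 were used and were paired by background. In the wild-type pair, the N2 strain was set against the mutant hrde-1(tm1200). In the met-2 set-25 pair, animals carrying met-2(n4256) and set-25(n5021) were set against a triple mutant that carries both of these alleles together with hrde-1(tm1200), so that both libraries of that pair bear the same mutations in a pair of histone H3 methyltransferase genes. All 4 libraries came from young adult hermaphrodites taken whole, each genotype was represented by 1 library, and no treatment is named. N2 carries a library-name prefix of its own, and the other 3 libraries share one, so in the wild-type pair the genotype and the prefix cannot be told apart, whereas the met-2 set-25 pair lies within a single prefix. The members were the 1 kb bins of the genome with a mean of at least 5 RPKM (reads scaled to bin length and library size) over these 4 libraries, which kept 25973 of 100257 bins. A bin was placed by its difference in log2(RPKM + 5), mutant minus never mutant, in each pair. It counted as the same way in both pairs at 2 or more in one direction in each, which 147 bins reached, and as in 1 pair only at 2 or more there and under 1 in the other, which 1255 bins reached.

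HRDE-1 is an Argonaute protein of the germ cell nucleus, and it carries secondary siRNAs that RNA-dependent RNA polymerases copy from mRNA templates. With its siRNA it recognises nascent transcripts, recruits nuclear RNAi factors, and represses transcription at its targets over generations. MET-2 and SET-25 methylate histone H3 at lysine 9, a mark that nuclear RNAi places on its targets, and SET-32 is a SET-domain protein needed for nuclear RNAi to begin at some loci. The cloning used here needs no monophosphate at the 5′ end and so takes in secondary siRNAs, which begin with a triphosphate.

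The steps between the lowest values gave the depth of each library. A single read was worth 1.45 RPKM in N2, 2.16 in hrde-1(tm1200), 1.86 in met-2 set-25 and 2.35 in the triple mutant, and the reads in the bins, in units of 1000, numbered 500, 349, 433 and 324. A bin at 0 reaches a difference of 2 with 15 RPKM on the other side, which was 6.4 to 10.3 reads in these libraries. Summed over the 5 bins of hrde-1, small RNAs reached 326 RPKM in N2, 248 in hrde-1(tm1200), 466 in met-2 set-25 and 253 in the triple mutant. Both mutants lay below their never mutant library, yet none of the 5 bins passed limma's test and the largest difference was −1.28. Over met-2 the same sums were 151, 208, 52.1 and 77.4 RPKM, lowest in the libraries labelled met-2 set-25. As each genotype had 1 library, every p-value below measures how far backgrounds or alleles disagree, not how far cultures of 1 strain do.

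The pairs shared more bins that moved the same way than bins that moved in opposite ways. The wild-type pair had 554 bins higher by 2 or more in the mutant (2.13% of the tested bins) and 777 lower (2.99%). The met-2 set-25 pair had 266 higher (1.02%) and 500 lower (1.93%). Of these, 87 bins were higher in both pairs (0.335%) and 60 were lower in both (0.231%), against 19 that passed in opposite directions. The 87 made up 15.7% of the bins higher in the wild-type pair and 32.7% of those higher in the met-2 set-25 pair, and the 60 made up 7.72% and 12% of the lower ones. At a difference of 1 the same-way and opposite counts were 1198 and 362, and at 3 they were 14 and 1. Over all tested bins the median difference was 0.21 in the wild-type pair and −0.03 in the met-2 set-25 pair, with an SD over bins of 0.98 and 0.81. Pearson's r between the pair differences was 0.23 over the 25973 bins, a description only, since all bins of a library share its depth.

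**Figure D1:**
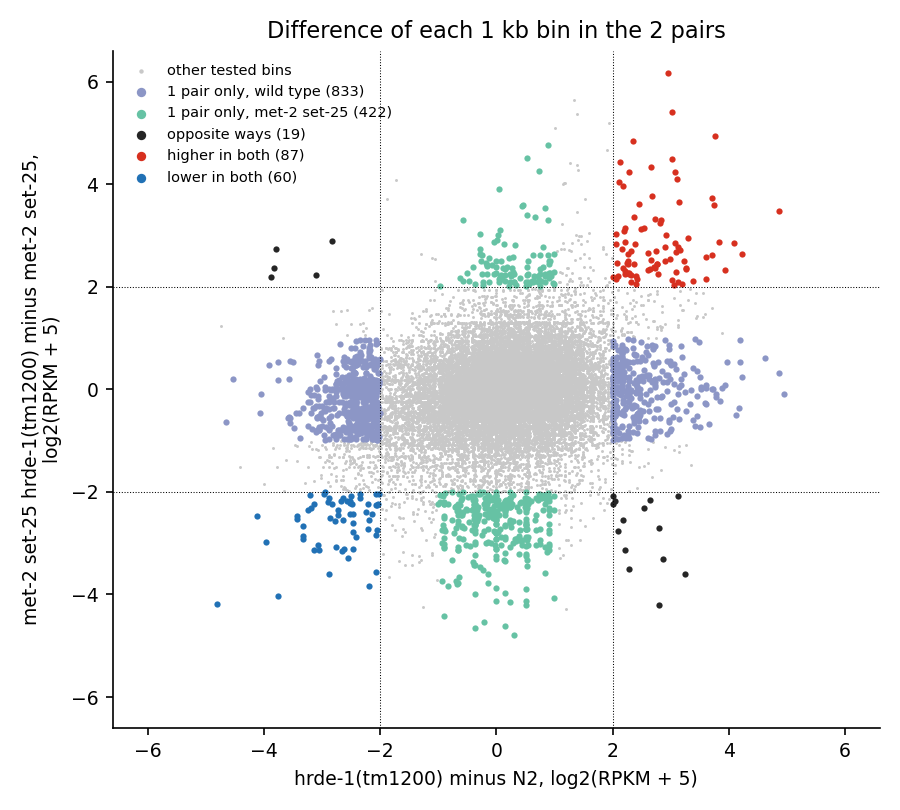
Each point is a tested 1 kb bin, with the wild-type pair difference on the x axis and the met-2 set-25 pair difference on the y axis, both in log2(RPKM + 5), mutant minus never mutant. The 87 red and 60 blue bins lie past 2 in the same direction in both pairs, and the 19 black bins lie in the opposite corners; bins past 2 in 1 pair only form the bands along each axis.

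A fit of both pairs together gave 219 bins that rose without HRDE-1 (0.843%) and 260 that fell (1.0%), by limma with the background as a block and a Benjamini-Hochberg adjusted p under 0.05. The calls included all 87 bins higher in both pairs and 59 of the 60 lower ones, which is a description, since the fit used the same values. All 479 calls were lost when the low-bin filter was lifted, and all were lost when the background block was dropped. Fitted alone, with the error taken from the spread between the set-32 alleles, the wild-type pair gave 0 calls, with 3150 bins at an unadjusted limma p under 0.05 (1580 higher and 1570 lower). The met-2 set-25 pair gave 10 bins that rose (0.0385%) and 21 that fell (0.0809%), or 30 and 33 after each library was centred on its median. With no filter on low bins, the wild-type pair gave 5865 calls, the met-2 set-25 pair 5017, and the difference between them 7821.

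The 87 bins that lay higher in both mutants formed 67 regions, the longest of 4 bins, and overlapped 71 named genes. Their median level was 2.9 RPKM in N2 and 1.86 in met-2 set-25, against 56.1 and 54 in the mutants. In N2 45 of the 87, and in met-2 set-25 57, lay under the value of 3 reads, so much of the class consists of bins with little or no small RNA when HRDE-1 is present. The region that stood highest by its smaller difference was Y47A7.2 (V:5198001-5199000), at 8.70 RPKM in N2, 181 in hrde-1(tm1200), 0 in met-2 set-25 and 148 in the triple mutant. The mutants were high and the never mutant libraries low, and limma put the mean difference at 4.35 ± 0.49 (SE, adjusted p = 5.94e-06). Bins higher or lower in both pairs were chosen on these same values. Such gaps and p-values are therefore a description only, here and for the regions below. A bin with no named gene further along the same arm (V:5216001-5217000), in a 4-bin region that reaches the gene Y49G5B.2, was listed at 0 RPKM in N2 and met-2 set-25, at 60.4 in hrde-1(tm1200) and at 61.0 in the triple mutant.

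The first 10 regions held a pair of metabolic enzyme genes. Over xdh-1, which codes for xanthine dehydrogenase of purine breakdown (IV:14409001-14410000), small RNAs were at 2.90 RPKM in N2, 101 in hrde-1(tm1200), 1.86 in met-2 set-25 and 77.4 in the triple mutant. The difference was 3.75 in the wild-type pair and 3.59 in the other (limma mean 3.67 ± 0.48 SE, adjusted p = 4.04e-05). In the window around xdh-1 the match of bins to genes was weak (r = 0.077), so this name is less certain. Over asm-3, an acid sphingomyelinase gene of lipid turnover (IV:520001-521000), the same libraries gave 0.18, 36.9, 0.25 and 112.95 RPKM. Here the triple mutant was the higher of the mutants, and both never mutant libraries were close to 0 (mean difference 3.75 ± 0.49 SE, limma adjusted p = 4.27e-05). The bin of the histone gene his-57 and the kinesin gene klp-12 (IV:11341001-11342000), whose reads cannot be divided between them, rose from 4.35 to 73.4 RPKM in wild type and from 1.86 to 124 in met-2 set-25.

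The remaining regions in this first 10 mostly overlap genes known only by their sequence names. C44B12.6 (IV:1135001-1136000) was at 5.32 RPKM in N2, 85.9 in hrde-1(tm1200), 0.65 in met-2 set-25 and 65.8 in the triple mutant. C09E7.8 (III:6558001-6559000) was at 4.35, 75.5, 0.47 and 89.1 RPKM in that order, and Y61A9LA.7 (V:4559001-4560000) at 0, 44.2, 0.19 and 35.2. In these 3 regions both mutants were high and both never mutant libraries were at or below a few reads. The ZK228 genes of chromosome V were different in that the triple mutant stood far above the single mutant. ZK228.3 (V:18458001-18459000) was listed at 0 in both never mutant libraries, at 35.6 RPKM in hrde-1(tm1200) and at 206 in the triple mutant. ZK228.10 (V:18456001-18457000) was at 2.90, 56.1, 0.01 and 354 RPKM, with differences of 2.95 and 6.16. The difference between the pairs did not pass limma's test for any bin (ZK228.10, adjusted p = 0.819), and gene names in this window are less certain, as the match of bins to genes there was weak (r = 0.107).

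Genes for receptors and signalling proteins also occur among the 67 regions, and the following were picked after their values were seen. Over srg-65, a serpentine receptor gene, a 4-bin region (V:5482001-5486000) also reached srg-66 and the hedgehog-related gene grl-18, and at its best bin held 1.74 RPKM in N2, 43.2 in hrde-1(tm1200), 2.56 in met-2 set-25 and 69.2 in the triple mutant. Over pdfr-1, which codes for the receptor of the PDF neuropeptides, a 3-bin region (III:6633001-6636000) held 17.4, 206, 26.1 and 171 RPKM. In both regions each mutant stood above both never mutant libraries. The MATH-domain genes math-23 and math-30, near neighbours on chromosome II, had 2 bins each in the class, with 1.45, 40.2, 0 and 42.2 RPKM at math-23 and 8.46, 65, 0 and 46.5 at math-30. The gene of the P granule protein DEPS-1, itself needed for germline RNAi, shares a bin with Y65B4BL.7 (I:509001-510000), which was at 18.9, 147, 13 and 98.5 RPKM.

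**Figure D2:**
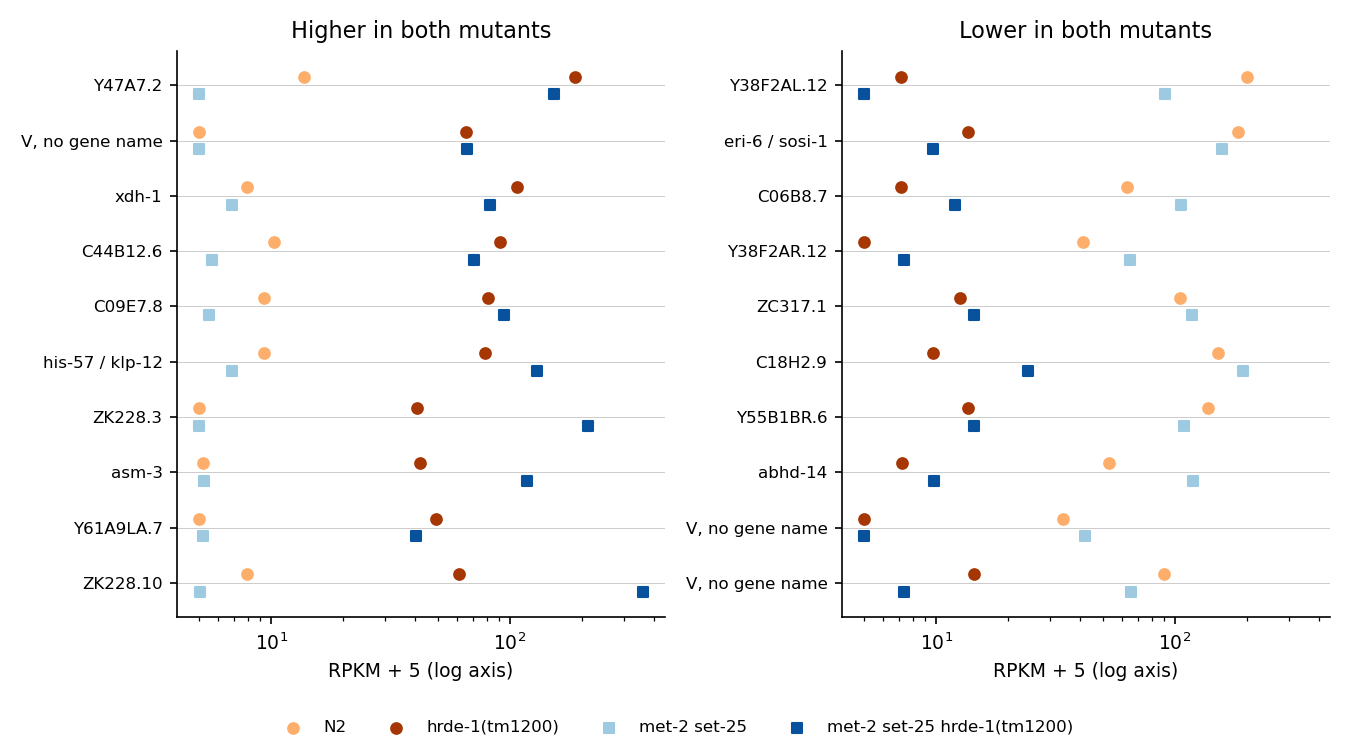
RPKM + 5 on a log axis in the 4 libraries for the 10 regions a direction with the largest smaller difference, at the best bin of each; circles are the wild-type pair and squares the met-2 set-25 pair, 1 library each. In the left panel both dark mutant symbols lie to the right of both light never mutant symbols, in the right panel to the left, for every region drawn. The choice of bins on these libraries largely fixes this.

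The 60 bins that lay lower in both mutants formed 49 regions, the longest of 3 bins, and overlapped 54 named genes. Their median level was 71.9 RPKM in N2 and 64.7 in met-2 set-25, against 6.54 and 5.32 in the mutants, and 29 and 37 of the 60 fell under the value of 3 reads in the single and the triple mutant. The lowest was Y38F2AL.12 (IV:2318001-2319000), at 196 RPKM in N2, 2.16 in hrde-1(tm1200), 85.7 in met-2 set-25 and 0 in the triple mutant. That leaves about 1 read in the single mutant, and limma put the mean difference at −4.50 ± 0.48 (SE, adjusted p = 4.4e-06). The bin shared by eri-6 and sosi-1 (I:4462001-4463000) was at 178, 8.63, 153 and 4.69 RPKM. eri-6 codes for part of a helicase that acts with the Argonaute ERGO-1 in making endogenous siRNAs, and sosi-1 lies within its interval, so a read here cannot be given to 1 of them.

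Pseudogenes and genes without a studied product made up much of the rest. The pseudogene C18H2.9 had 3 adjacent bins in the class, the best (III:7669001-7670000) at 146 RPKM in N2, 4.66 in hrde-1(tm1200), 187 in met-2 set-25 and 19.3 in the triple mutant. A second pseudogene, ZC317.1 (V:5473001-5474000), was at 100 RPKM in N2, 7.55 in hrde-1(tm1200), 112.7 in met-2 set-25 and 9.38 in the triple mutant. At these bins small RNA was reduced in the mutants, and met-2 set-25 held more than N2. The hrde-1(tm1200) value at C18H2.9 lay under that of 3 reads (6.48 RPKM). At another C18H2.9 bin of the class (III:7671001-7672000) N2 was the higher, at 171 RPKM against 149 in met-2 set-25. Y55B1BR.6 (III:453001-454000) gave 132, 8.63, 104.3 and 9.38 RPKM, and Y38F2AR.12 (IV:2402001-2403000) gave 36.3, 0, 59.6 and 2.35. Over abhd-14, an α/β-hydrolase gene (IV:1029001-1030000), the values were 47.9, 2.19, 114 and 4.78 RPKM. C06B8.7 (V:15508001-15509000), at 58.0, 2.16, 101 and 7.04 RPKM, completes the named genes of the first 10, the other bins of which lie on chromosome V with no gene named (V:20155001-20156000 and V:5478001-5479000).

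Further down the list, genes with known products included ferl-1, trp-4 and cdh-12, again picked after their values were seen. ferl-1, a ferlin gene for membrane fusion, held 186 RPKM in N2, 30.6 in hrde-1(tm1200), 143 in met-2 set-25 and 15.1 in the triple mutant (I:5452001-5453000). The next bin, which ferl-1 shares with F27C1.18, was the richest of the class, at 711, 168, 575 and 117, and its reads cannot be divided between them. Here the mutants kept small RNA well above the value of 3 reads. trp-4, a mechanosensory channel gene (I:13906001-13908000), was at its best bin at 49.8, 0.06, 24.3 and 0.06 RPKM, and the cadherin gene cdh-12 (III:1171001-1173000) at 27.6, 2.16, 166 and 7.04. At the edge of the class, the last bin inside was F47B7.6 (−2.94 and −2.01) and the first outside was F41B5.1 (−2.0 and −2.94). The edge of the higher class lay between samt-1 (2.01 and 2.19) and ztf-13 (2.0 and 2.55).

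Most tested bins of genes described as nuclear RNAi targets held less small RNA in both mutants. This list came from prior knowledge of the pathway, and 13 of its 14 genes had tested bins, 43 in all. It was chosen with earlier results of these data known, so the shares given here are a description only. By limma 13 of the 43 bins fell (30.2%, against 1.0% of all tested bins) and 1 rose. The median difference was −0.88 in the wild-type pair and −0.76 in the met-2 set-25 pair, against 0.21 and −0.03 over all bins, and 27 of the 43 were negative in both (62.8%, against 24.1% of all). A difference of −2 or less was reached by 14 of the 43 in the wild-type pair and by 3 in the met-2 set-25 pair, and by 2, at C38D9.2 and at eri-6 with sosi-1, in both.

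F15D4.5, a gene from which HRDE-1 siRNAs are well known, held 694 RPKM in N2, 90.7 in hrde-1(tm1200), 483 in met-2 set-25 and 128 in the triple mutant in 1 bin (II:13246001-13247000). The mutants lay far below, with a mean difference of −2.37 ± 0.36 (SE, limma adjusted p = 0.000232). The bin beside it (II:13245001-13246000) did not follow, at 123, 144, 35.4 and 120 RPKM. F15D4.6 gave 250, 44.2, 159 and 46.9 RPKM (adjusted p = 0.00737 by limma), and R06C1.4 198, 28.1, 110 and 25.8 at its higher bin (adjusted p = 0.00447 by limma). Reads of the near-identical copies F07B7.1 and F07B7.2 cannot be separated, and the bin they share held 189, 32.7, 103.96 and 33.6 RPKM. In these bins other than II:13245001-13246000, N2 was the highest of the 4 libraries and both mutants were the lowest.

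Other list members did not pass. bath-45 was among the richest, at 756, 371, 569 and 403 RPKM in its first bin, and its 3 bins had adjusted limma p-values of 0.281, 0.821 and 0.93. W05H12.2 and ZK402.3 likewise had no call in their 4 bins together, and the ZK402.3 bin at 231, 187, 230 and 226 RPKM was almost level across the libraries. C38D9.2 fell in its last bin (V:17571001-17572000), at 303, 45.3, 261 and 25.8 RPKM (adjusted p = 0.000191 by limma), although the window around it is one of 4 in which bins and gene models could not be matched, so its name is less certain.

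At 4 places, picked after the values were seen and given as values only, higher and lower bins lay within a few kilobases of each other. In the eri-6 interval, the bin at I:4462001-4463000 fell as given above, while the bin at I:4457001-4458000 rose, with 2.34 RPKM in N2, 59.4 in hrde-1(tm1200), 11.6 in met-2 set-25 and 37.5 in the triple mutant (limma mean 2.24 ± 0.50 SE, adjusted p = 0.0113). Over R03D7.2, the first bin (II:10932001-10933000) fell from 162 to 37.4 RPKM and from 161 to 35.6. A later bin of the gene (II:10934001-10935000) was at 8.70 RPKM in N2, 53.2 in hrde-1(tm1200), 160 in met-2 set-25 and 178 in the triple mutant, the lowest of these 4 libraries being N2. On chromosome V, the lower bins at ZC317.1 and V:5478001-5479000 lie a few kilobases before the higher region at srg-65. Over C34C12.2 the bin at III:3453001-3454000 was at 98.0, 17.3, 49 and 6.45 RPKM, and the one at III:3455001-3456000 was at 50.8, 203, 1.86 and 170.

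The bins that moved the same way in both pairs shared features that the choice of bins did not use. The deposited table marks bins as GRH or GRTS, and neither abbreviation is explained. Of the 60 lower bins 12 carried the GRH mark (20%), of the 87 higher bins none did, and 0.724% of all tested bins did. GRTS marked 9 of the higher bins (10.3%) and 3 of the lower (5%), against 0.697% of all tested bins. As the libraries behind the marks are not named, they cannot be taken as independent of these data. Among the GRH bins lower in both were Y20F4.8 (153 and 23.7 RPKM in the wild-type pair, 54 and 4.69 in the other) and F40G12.7 (86.5 and 16.7, then 73.1 and 5.86), examples picked after their values were seen. Among the GRTS bins higher in both was that of T04A11.14 and sru-17, a serpentine receptor gene, which already held 100 RPKM in N2 and rose to 477, and went from 48.4 to 450 RPKM in met-2 set-25.

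By annotation, both classes held fewer protein-coding genes than the tested bins as a whole. Protein-coding genes overlapped 73.6% of the higher bins, 66.7% of the lower ones and 85.4% of all tested bins. Pseudogenes overlapped 10.3, 18.3 and 4.73%, and no named gene lay in 15 of the 87, in 9 of the 60 and in 7.94% of all. Bins of chromosome V from 19 Mb, where names were withheld, were not counted as bins with no named gene. Exons of coding genes covered at least 50% of the length of 27 of the higher bins, 20 of the lower ones and 47.5% of all. Chromosome V held 28.7% of the higher bins and 20% of the lower, against 15.2% of all, and chromosome X held 3.45 and 15% against 7.58%. The 21U-RNA clusters of chromosome IV, from which most piRNAs come, held 8.05% and 3.33% of the classes against 11.3% of all. These shares describe bins that lie in runs and have no test here.

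The same bins were then looked at in 4 libraries that played no part in their choice, the pairs of never mutant and hrde-1(tm1200) animals in each set-32 mutant. Of the 87 higher bins, 75 were also higher in the set-32(ok1457) pair and 75 in the set-32(red11) pair, with medians of 1.29 and 1.74. In both set-32 pairs together 45 of the 87 were higher by 1 or more, whereas 1.99% of all tested bins were, and none was lower by 1 or more in both. Of the 60 lower bins, 50 and 55 were lower in the ok1457 and red11 pairs, with medians of −1.28 and −2.46, and 37 were lower by 1 or more in both, against 3.14% of all. The named genes differed among themselves. ZK228.3 reached 5.08 and 5.59 in the set-32 pairs and xdh-1 3.37 and 3.89, but the intergenic bin at V:5216001-5217000 gave −0.21 and 0.39. Among the lower ones, eri-6 with sosi-1 reached −2.21 and −4.34 and C18H2.9 −1.67 and −4.47, but C06B8.7 gave 0.81 and −0.70.

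**Figure D3:**
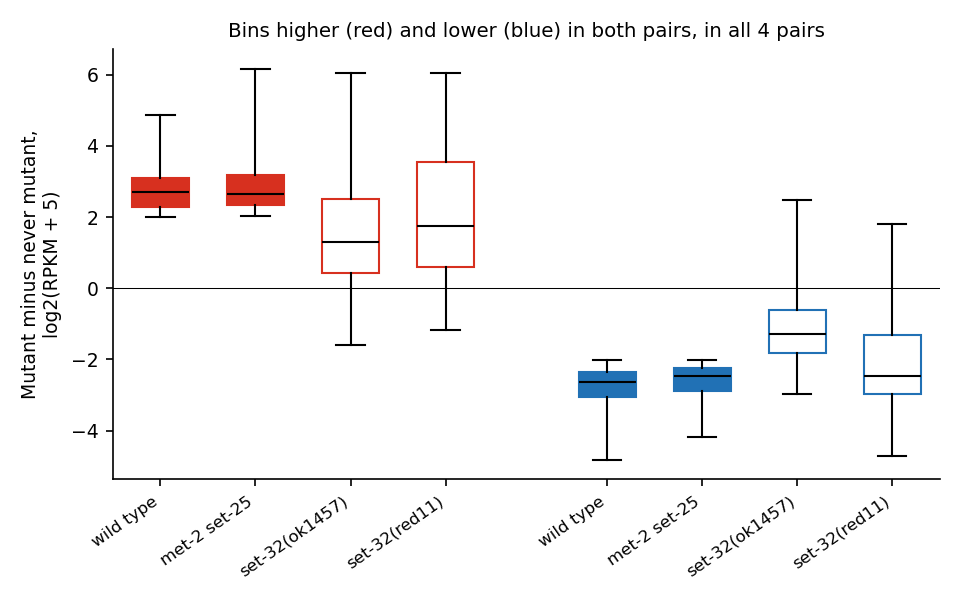
Difference in log2(RPKM + 5), mutant minus never mutant, of the 87 bins higher (red) and 60 bins lower (blue) in both pairs, in all 4 backgrounds; boxes span the quartiles, the line is the median and whiskers reach the extremes. Filled boxes are the pairs that chose the bins, and open boxes are the set-32 pairs, whose medians are 1.29 and 1.74 for the higher bins and −1.28 and −2.46 for the lower.

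In wild type and met-2 set-25, libraries from animals in which hrde-1 had been repaired, also unused in the choice, had medians nearer to the never mutant than to the mutant libraries. The repaired libraries, like all set-32 ones, carry a library-name prefix that none of the 4 libraries compared above bears. In these backgrounds repair and prefix therefore cannot be told apart. For the higher bins the median was 6.11 RPKM at F5 and 5.50 at F20 after repair in wild type, and 0.46 and 3.58 in met-2 set-25, where 3 reads of the F5 library were worth 18.9 RPKM. For the lower bins it was 61.7 and 64.7 RPKM in wild type and 46.9 and 46.2 in met-2 set-25. In the set-32 mutants the lower bins differed from this. After repair their medians were 14.3 (F8) and 19.6 RPKM (F20) in set-32(ok1457) and 18.2 (F5) and 29.6 RPKM (F20) in set-32(red11), against 86.3 and 81 RPKM in the never mutant libraries of these alleles and 44.7 and 7.89 RPKM in the hrde-1(tm1200) ones. The higher bins had medians of 12.1 and 6.53 RPKM after repair in set-32(ok1457) and 13.2 and 9.15 in set-32(red11), beside never mutant medians of 6.9 and 4.89 and mutant ones of 38.3 and 39 RPKM.

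Bins past 2 in 1 pair only were more numerous than shared ones, 833 in the wild-type pair (326 higher and 507 lower, or 233 and 628 after centring each library on its median) and 422 in the met-2 set-25 pair (105 higher and 317 lower). No bin passed limma's test of the difference between the pairs at an adjusted p under 0.05, with 1731 at an unadjusted p under 0.05. At these settings no bin is shown to respond in 1 background and not in the other. In the bins higher in the wild-type pair only, the medians were 1.80 RPKM in N2, 38.9 in hrde-1(tm1200), 27.9 in met-2 set-25 and 27.5 in the triple mutant, with N2 the lowest, as the choice of these bins largely fixes. In the bins lower in that pair only, they were 39.2, 2.16, 6.52 and 4.69 RPKM, with N2 the highest. In the repaired libraries of wild type, the medians were 21.4 RPKM at F5 and 17 at F20 for the former bins. For the latter bins they were 2.85 and 4.89 RPKM. These medians lay on the mutant's side of N2 in both classes, as did those of the never mutant set-32 libraries. Bins chosen for an extreme N2 tend to place any other library there, so no conclusion about repair is drawn.

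The 317 bins lower in the met-2 set-25 pair only had medians of 2.90 RPKM in N2, 4.32 in hrde-1(tm1200), 41.0 in met-2 set-25 and 2.35 in the triple mutant. Their medians were 6.72 and 15.8 RPKM in the repaired met-2 set-25 libraries at F5 and F20. The 105 bins higher in that pair only had medians of 16.0, 17.4, 2.05 and 35.3 RPKM, and 6.35 and 7.81 after repair. As a description, the other pair lay nearer to the mutant than to the never mutant level in most bins of each class. The shares were 86.8% and 88.4% of the bins higher and lower in the wild-type pair only. They were 61.0% and 86.8% for those of the met-2 set-25 pair. A choice of bins in which a single library is extreme favours such shares. In the lower classes a bin can also pass the filter through a single high library. No conclusion is therefore drawn from these shares. N2 is also the library with a prefix of its own, and its part in the wild-type classes cannot be told apart from genotype.

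**Figure D4:**
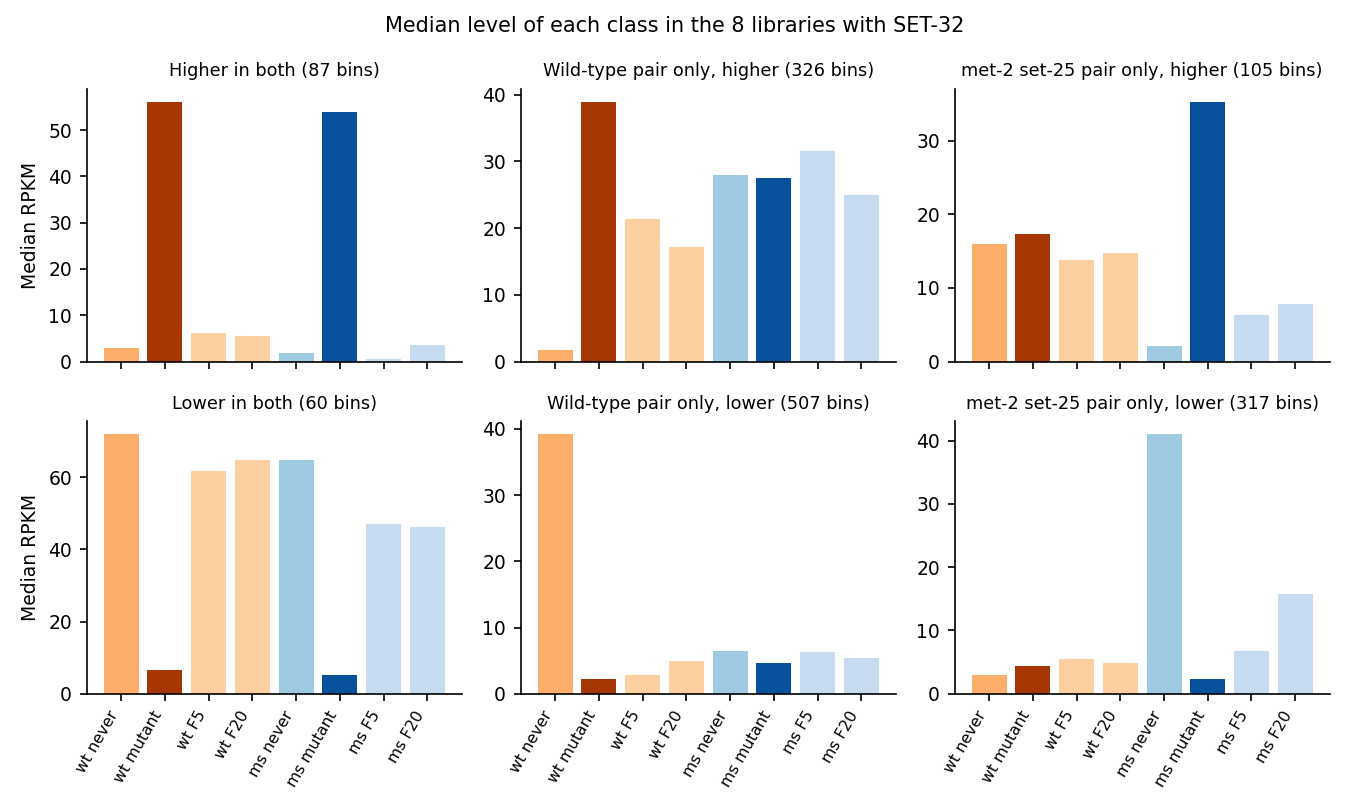
Median RPKM of each class of bins in the 8 libraries with SET-32 (wt, wild type; ms, met-2 set-25; never, never mutant; F5 and F20, generations after repair of hrde-1), 1 library a bar, axes from 0. In the left column both mutants stand apart from the repaired and never mutant libraries; in the middle column N2 stands apart and at lower right met-2 set-25, at 41.0 RPKM, which the choice of bins on these libraries largely fixes.

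Single genes of these classes gave the following values. Over bbs-5, which codes for a subunit of the BBSome of cilia (III:10259001-10260000), there were 1.45 RPKM in N2, 183 in hrde-1(tm1200), 153 in met-2 set-25 and 192 in the triple mutant. The bin of moc-2, a molybdenum cofactor gene, and W01A11.7 (V:6504001-6505000) gave 0, 149, 108 and 101 RPKM, and the demethylase gene jmjd-3.2 (X:14452001-14453000) gave 0.05, 120, 54 and 84.5. N2 was the lowest of these 4 libraries in all 3. An intergenic bin near the left end of the X chromosome (X:216001-217000) was the reverse, at 202 RPKM in N2 and 3.24, 4.65 and 1.17 in the other 3 of these libraries, though set-32(ok1457) and set-32(red11) held 97.2 and 91.8. So was F56D6.18 (IV:3911001-3912000), at 113.2, 2.16, 13 and 12.

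In the met-2 set-25 pair, the lower class held runs over long genes. The cadherin gene cdh-5 had 8 adjacent bins, the best (IV:8675001-8676000) at 0.05 RPKM in N2, 2.16 in hrde-1(tm1200), 87.5 in met-2 set-25 and 0 in the triple mutant. R13H4.5 (V:11861001-11862000) gave 4.35, 6.48, 199 and 2.35 RPKM, and glt-5, a glutamate transporter gene, gave 1.45, 2.16, 117 and 0. In each, met-2 set-25 was the highest of these 4 libraries. The repaired libraries were not all low, as the cdh-5 bin held 63 and 65 RPKM in the repaired met-2 set-25 libraries at F5 and F20 and 41.4 and 39.1 in those of wild type. On the higher side, math-31 (II:1912001-1913000) was at 82.7, 141, 1.86 and 126 RPKM and pdfr-1 (III:6646001-6647000) at 200, 276, 13 and 211, both lowest in met-2 set-25 of these 4 and both called by limma in this pair (adjusted p = 0.0439). The pdfr-1 bin was also low in the repaired met-2 set-25 libraries, at 18.9 and 19.6 RPKM. Those calls were lost under other settings. The pair gave 0 calls when only the 8 never mutant and mutant libraries of all backgrounds were fitted, and 0 with a pseudocount of 1.

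Neuronal markers differed between the libraries of the met-2 set-25 pair. The 8 marker genes, which act in synaptic transmission, summed to 309 RPKM in N2, 278 in hrde-1(tm1200), 642 in met-2 set-25 and 212 in the triple mutant, with 642 the highest of the 16 libraries and 532 in the repaired met-2 set-25 F5 library the next. Only 20 of their 91 bins passed the filter, which a bin can pass through 1 high library, and none of the 20 passed limma over both pairs. Most of the fall from met-2 set-25 to the triple mutant lay in unc-104 (284 to 91.6 RPKM), ric-4 (135 to 27.2) and unc-17 (82.1 to 18.8). Of the markers only snb-1 did not fall (24.2 to 25.8), and unc-13 was near level (14.9 to 12.1). The part of these markers in the bins lower in the met-2 set-25 pair only was not tested. In whole animals, fewer cells of a type and less RNA per cell cannot be told apart.

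Other tissue markers differed between the mutants and their never mutant libraries without any limma call in the joint fit. Intestinal markers, mainly the vitellogenin genes of yolk, summed to 7834 RPKM in N2, 12520 in hrde-1(tm1200), 7521 in met-2 set-25 and 8818 in the triple mutant, higher in each mutant. Sperm genes, mainly those of the major sperm proteins, went the other way, at 2411, 1415, 1099 and 776.6 RPKM. Of their 48 tested bins, 32 (66.7%) were negative in both pairs, against 24.1% of all tested bins. The N2 sum was the highest of the 16 libraries. In both set-32 pairs most of these bins were instead higher in the hrde-1(tm1200) library, as at msp-49 (2.29 in ok1457 and 0.83 in red11). Some were not, as ssp-10 was lower in the ok1457 pair (−0.87). Muscle markers summed to 2009, 1202, 1038 and 970.5 RPKM and hypodermal markers to 1259, 1047, 965.4 and 923, with N2 the highest in both. In 83 tested bins of oocyte and germline genes the median difference was 0.39 and 0.14. Whether these differences bear on the bins above was not tested.

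Most bins of histone genes lay higher in both mutants, though 1 passed the test. Of 73 tested bins, 54 were positive in both pairs (74%, against 31.4% of all) and 4 negative in both, and the medians were 1.05 and 0.45 against 0.21 and −0.03 over all bins. The single limma call was the his-57 and klp-12 bin, a share of 1.37%, near the 0.843% of all tested bins that rose. In the set-32 pairs the direction was mixed. The his-58 bin (IV:11339001-11340000) gave −0.72 in ok1457 and −0.30 in red11, and that of his-51 with his-52 gave 1.57 and 2.30. At his-18 (V:8898001-8899000), picked after its values were seen, there were 10.9 RPKM in N2, 60.7 in hrde-1(tm1200), 23.7 in met-2 set-25 and 58.3 in the triple mutant (limma adjusted p = 0.0925). Reads of the repeated histone copies cannot be assigned to 1 copy, so neighbouring values are not independent.

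Genes of the RNAi machinery had medians of 0.31 and 0.05 in 266 tested bins, beside 0.21 and −0.03 over all bins, and by limma 2 rose (0.752%, against 0.843% of all) and 5 fell (1.88%, against 1.0%). Those that rose were the deps-1 bin and 1 of eri-6, and those that fell were 4 of eri-6 and 1 of simr-1, a Tudor-domain gene of the piRNA pathway (I:5981001-5982000; 121, 54.3, 212 and 39.1 RPKM; adjusted p = 0.0388). ERGO-1 targets, whose siRNAs depend on another Argonaute, had medians of −0.01 and −0.21 in 30 bins with 0 calls. Chromatin factor genes had medians of 0.53 and −0.02 in 128 bins, with 0 that rose and 1 that fell. Bins with microRNA genes lay near level, at −0.11 and −0.04 in 158 bins with 0 calls, as did those of snRNA and snoRNA genes, at −0.07 and 0.12 and at −0.04 and 0.10. Bins with piRNA genes differed between pairs, at 0.79 and −0.14 in 2226 bins. The GRH bins, 188 tested, had medians of −0.80 and −0.58, with 35 that fell by limma (18.6%, against 1.0% of all) and 8 that rose (4.26%, against 0.843%), and the 181 GRTS bins, at −0.36 and −0.11, had 22 each way (12%).

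**Figure D5:**
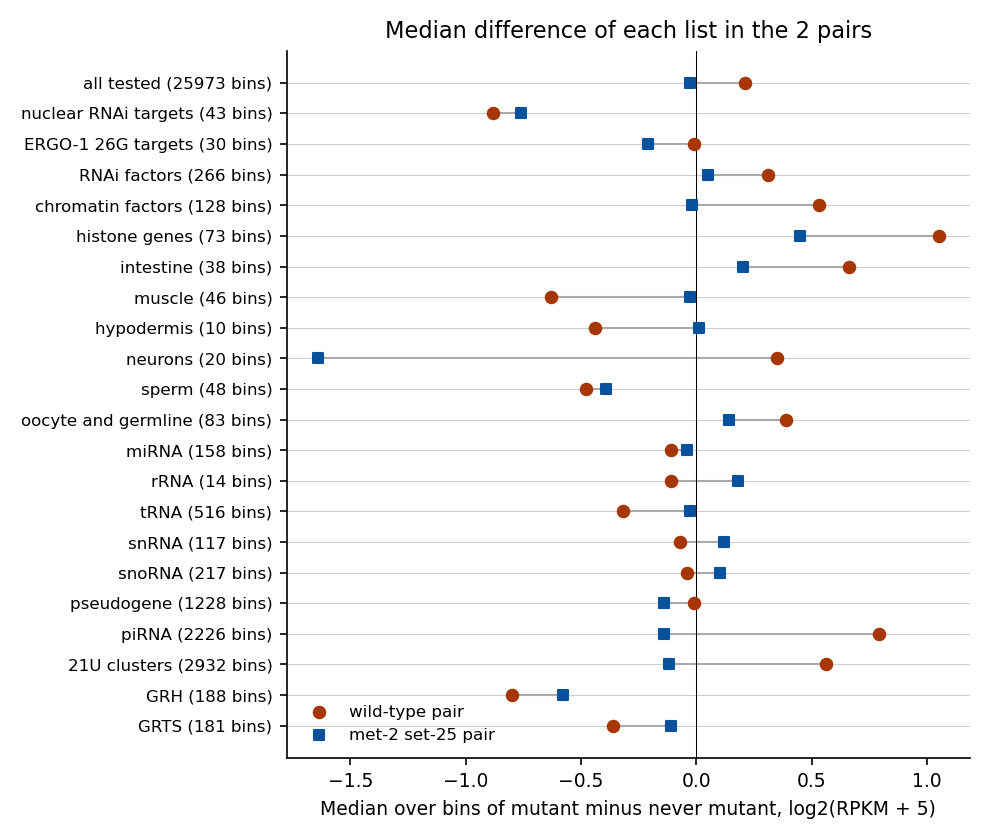
Median difference in log2(RPKM + 5), mutant minus never mutant, over the tested bins of each list, circles for the wild-type pair and squares for the met-2 set-25 pair; the line at 0 marks no difference. Nuclear RNAi targets and GRH bins lie to the left in both pairs and histone genes to the right in both.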

How the data were processed

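RPKM over bins of 1000 bp was used as the authors deposited it, in a single table that also marks bins as GRH, GRTS or misanotated. The submitters' processing notes name Bowtie 0.12.7. Not given in the sources used here: the build, how reads with more than 1 match were handled, and what the marks mean. Another 27 library columns matched no sample and were not used. Of the low values, 64.7 to 68.8% lay within 0.05 of a whole read, too few to recover counts. RPKM of a library summed to 72.5 to 80.5% of a per-million sum in the 4 libraries.

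Differences were taken in log2(RPKM + 5), a scale that understates changes of low bins. limma 3.58.1 (eBayes with a trend, R 4.3.3, two-sided, Benjamini-Hochberg over 25973 bins) was fitted to the 4 libraries with the background as a block. Each pair, and the difference between pairs, was fitted on all 16 libraries with the error from the set-32 alleles in each hrde-1 state. Both fits were tested on simulated data.

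Bins were named by overlapping WBcel235 genes other than piRNA genes, on either strand, with RefSeq symbols. The build of the bins is not named, and the match was checked by correlating values with gene models at shifts of up to 8 kb. In 99 of 103 windows the best match was at 0; the others were IV at 15 and 16 Mb and V at 17 and 19.92 Mb. Names were withheld on V from 19 Mb. Adjacent bins of a class were joined into regions, and the text names the 10 regions a direction with the largest smaller difference (5 in classes of 1 pair), the nuclear RNAi list and hrde-1; other genes are said to be picked after their values were seen. The members and lists were chosen with earlier results of these data known. Alternatives were the pseudocount, the minimum mean, the threshold, centring, the block and the source of error. No sequences are shown.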

Additional observations from a re-analysis of the deposited data

Results flagged for a closer look

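In 19 bins the pairs passed a log2 difference of 2 in opposite directions. At the reported settings limma called a difference between the pairs for no bin (0 at an adjusted p under 0.05). A difference between the backgrounds is therefore not shown at these bins. Of the 19, 14 bins in 10 regions were higher in hrde-1(tm1200) than in N2 and lower in the triple mutant than in met-2 set-25. Among them, D2045.9 had 5 adjacent bins, the best (III:10476001-10477000) at 1.63 RPKM in N2, 43.2 in hrde-1(tm1200), 95.0 in met-2 set-25 and 5.08 in the triple mutant. The endocytic gene unc-41, the dosage compensation gene sdc-3 and the spindle checkpoint gene san-1 were also in this set. The other 5 bins, in 3 regions, were the reverse, as at dlk-1, a kinase gene of axon regeneration, with 154, 6.48, 7.45 and 77.4 RPKM. Genes of these bins were picked after their values were seen, and each value rests on 1 library.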

How the results depend on the processing

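Counts of bins past a fixed difference depended on the settings. They are given here as higher in both pairs, lower in both, higher and lower in the wild-type pair only, higher and lower in the met-2 set-25 pair only, and opposite, with 87, 60, 326, 507, 105, 317 and 19 as reported. With a pseudocount of 1 RPKM they were 217, 334, 1392, 814, 322, 509 and 136. With a threshold of 1 they were 539, 659, 3277, 2129, 1158, 1568 and 362, and with a threshold of 3 they were 9, 5, 53, 52, 14, 66 and 1. With a minimum mean of 20 RPKM the counts of the pairs taken alone fell to 190, 149, 51 and 101, and the other 3 stayed within 1.5 times.

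The 479 limma calls over both pairs numbered 304 with a pseudocount of 1, 528 after centring, 0 with no filter on low bins, and 0 with no replicate block, that is, without pairing by background. The wild-type pair, with 0, gave 5, 2 and 5865 calls with a pseudocount of 1, after centring and with no filter. The met-2 set-25 pair, with 31, gave 0, 63 and 5017. It gave 0 when only the 8 never mutant and mutant libraries of all backgrounds were fitted. When the set-32 libraries of 1 hrde-1 state were left out, it gave 0 or 4. The difference between pairs, with 0, gave 7821 with no filter and 0 under the other settings run. The cause of these shifts was not tested. All 20 named regions changed in both pairs kept their call with a pseudocount of 1 and after centring, and lost it with no filter. With 1 library a genotype, no library of a pair could be left out. Values under 3 reads, worth 4.35 to 7.05 RPKM in the libraries compared, lie near the floor. At this depth a bin listed at 0 is not shown to be without small RNA.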
